A study of Bos taurus with 72 samples.

Results

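Bovine mammary epithelial cells (BMECs) were held for 6 h in a medium whose only essential amino acid (EAA) was arginine (Arg). The effect on the transcriptome was read in 12 of the 72 libraries of the study. The 6 libraries Arg_1 to Arg_6 came from wild-type BMECs held for 6 h in DMEM-F12 without EAA to which arginine had been added at its concentration in the complete medium. The 6 libraries NEG_1 to NEG_6 came from the same medium without any EAA, the 6 libraries of POS came from complete DMEM-F12, and 54 libraries came from 9 media that each held 1 other EAA (His, Ile, Leu, Lys, Met, Phe, Thr, Trp or Val). All cells were primary cells cultured from mammary tissue of dairy cows, had been expanded in serum with insulin (the labels also name prolactin and hydrocortisone, which the study's methods do not), and were serum-starved overnight before treatment. A mammary cell line or an intact gland was therefore not measured. The study calls the 6 replicates of each medium biological, but the sources do not say whether they came from different cows or separate isolations, so each p-value reflects the spread between libraries, which may be partly technical.

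Arginine is a substrate of milk protein synthesis, and mammary cells also convert it to ornithine, proline, polyamines and nitric oxide. Cells sense the lack of amino acids mainly through the kinase GCN2, which responds to uncharged tRNA and favours translation of the transcription factor ATF4, and through mTORC1, which promotes translation and growth when amino acids are present. Arginine reaches mTORC1 through its own sensors, among them the cytosolic protein CASTOR1. The genes of these pathways could not be looked up, because the deposited table identifies its 29550 genes by Ensembl or running names alone and the reference table of bovine genes used here gives an Ensembl identifier in 0 of its 37063 rows, so that no match was possible. For the same reason the epithelial identity of the cells could not be checked against keratins, caseins or other markers. The results are therefore given by gene level, gene length and pattern across media, and for 4 genes by identifier.

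The values were FPKM, which relate the reads of a gene to its length and to a scaling factor of each library. The reads behind them came out as whole numbers, between 12803214 and 17345709 per Arg library, 15907885 and 17910737 per NEG library and 13575591 and 17234161 per POS library. Some libraries stood apart. Arg_4 had the fewest reads on genes of its group and only 11838 genes above 0, while the highest Arg library had 17403. The study reports a lower mapping efficiency for Arg_4 than for the other Arg libraries, with a number of clean reads within their range. POS_4 had 13537 genes above 0, the fewest in POS. NEG_2 did not stand apart in reads or in genes above 0 (16596, with 17118 in the next NEG library). It did so in reads on genes per unit of the scaling factor, a ratio that does not depend on the called genes. This ratio was 18.7 M reads in NEG_2 and between 16.1 and 16.6 M in the other NEG libraries. In the Arg libraries it was between 14.8 and 15.7 M, below every NEG library. NEG_2 also stood apart in the levels of the called genes, which were chosen with it among the libraries. The comparisons were repeated without Arg_4 and NEG_2, a pair set with earlier results of these data known, and without POS_4 where POS enters. The labels name no sequencing batch, so no within-batch value can be given.

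After 6 h with arginine, more genes fell than rose under the deposited scaling. The genes tested were the 12121 whose FPKM averaged 1 or more over the 72 libraries, and 804 of them were called in Arg against NEG, 6.63% of those tested. Of these, 277 were higher in Arg (2.29%) and 527 were lower (4.35%). A gene was called when the Benjamini-Hochberg adjusted p of limma on log2(FPKM + 1) was under 0.05. The changes were moderate. The median log2 fold change was 0.60 among the 277 rises, a 1.52-fold change, and −0.76 among the 527 falls, a 1.69-fold change. Only 18 rises and 124 falls exceeded 1 in size on the log2 scale. The number called changed strongly with single libraries, from 122 without NEG_1 to 2071 without Arg_4. Over all genes tested the median log2 fold change was −0.08, and −0.03 without Arg_4 and NEG_2. In bulk RNA, fewer cells of a type and less RNA per cell cannot be told apart.

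**Figure D1:**
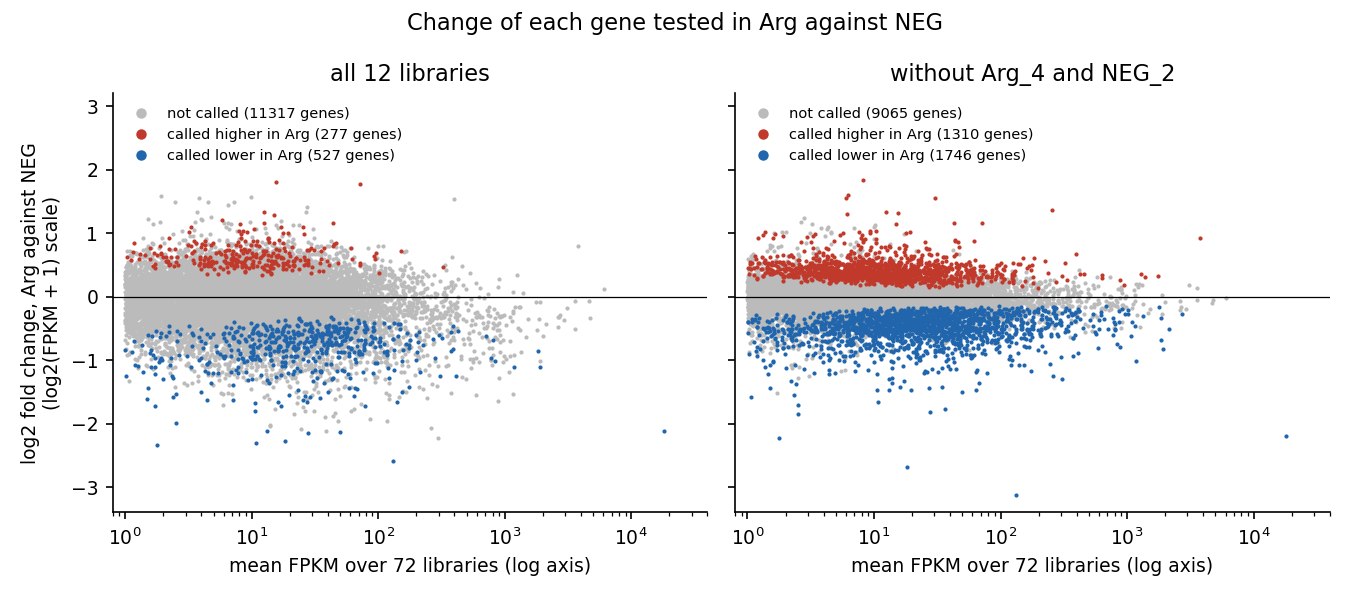
Each point is 1 of 12121 genes. The x axis gives its mean FPKM over 72 libraries on a log axis and the y axis its log2 fold change in Arg against NEG on the log2(FPKM + 1) scale, with all 12 libraries on the left and without Arg_4 and NEG_2 on the right. The 277 rises (red) sit mostly at low and middle levels and the 527 falls (blue) reach further up, and the numbers called grow to 1310 and 1746 in the right panel while the grey cloud narrows.

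Without Arg_4 and NEG_2 the response became broader and shallower. The number of genes called was then 3056, 25.2% of those tested, with 1310 higher (10.8%) and 1746 lower (14.4%). The median log2 fold change was 0.39 among these rises and −0.46 among these falls. All 277 of the earlier rises and 524 of the 527 earlier falls were called again in the same direction, and 0 were called in opposite directions. A further 1033 rises and 1222 falls were called only without the pair of libraries. Arg_4 was the highest Arg library in 65.0% of the 277 rises and the lowest in 63.6% of the 527 falls, where over all genes tested the shares were 33.4% and 47.5%. NEG_2 was the lowest NEG library in 60.3% of the rises and the highest in 68.1% of the falls, against 37.4% and 43.7% over all genes. Arg_4 and NEG_2 thus lay at opposite ends for many of the called genes. Leaving out Arg_4 alone gave 2071 calls and leaving out NEG_2 alone gave 702. Other single libraries lowered the number of calls, to 122 without NEG_1, 143 without Arg_1, 213 without NEG_5, 217 without Arg_2, 228 without NEG_4, 232 without NEG_3 and 313 without NEG_6. With Arg_3, Arg_5 or Arg_6 left out, the number was 663, 1097 and 935. The count of 804 is therefore a loose measure of the size of the response, and falls outnumbered rises in each of these fits under the deposited scaling.

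The limits of the study ask for a change over 1 in size on the log2 scale and p under 0.05 without adjustment. The study set them for a DESeq test, while here they were applied to limma on log2(FPKM + 1). At these limits, leaving out the same pair had the opposite effect. All 12 libraries gave 382 differentially expressed genes (DEG, 3.15%), 41 higher (0.338%) and 341 lower (2.81%). Without Arg_4 and NEG_2 there were 114 (0.941%), 28 higher (0.231%) and 86 lower (0.71%). Only 11 of the 41 higher DEG and 81 of the 341 lower DEG were found in both counts. Reads were missing from Arg_4 but present in every NEG library for 108 of the 341 lower DEG (31.7%), where this held for 1150 of all genes tested (9.49%), and they were missing from another Arg library under the same condition for 14 of the lower DEG. Scaled by total reads there were 57 higher and 218 lower DEG, and scaled to the same total FPKM 170 higher and 110 lower. The count was 142 without Arg_4, 230 without NEG_2, 603 without Arg_5 and 587 without Arg_6. With a pseudocount of 0.1 it was 499, and with voom on the reads 512.

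The balance of rises and falls depended on how libraries were scaled. The deposited FPKM carry a scaling factor per library, and with it the 804 calls held 277 rises and 527 falls. When libraries were scaled by total reads instead, there were 980 calls with 627 rises and 353 falls, and when they were scaled to the same total FPKM there were 1570 calls with 1335 rises and 235 falls. The median log2 fold change over all genes tested moved from −0.08 to 0.03 and 0.18. All 277 rises were called higher under the other 2 scalings also, both of which raise the median over all genes. Of the 527 falls, 353 were called lower when scaled by total reads, 235 when scaled by total FPKM and 228 under all 3 scalings. No called gene was called in the opposite direction under either rescaling. All 277 rises and 226 of the falls were called under the 3 scalings and also without Arg_4 and NEG_2.

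A single short gene took a share of the total FPKM that differed between the groups. The gene with the highest mean FPKM, only 55 bp in recovered length, held 3.99% to 7.68% of the total FPKM in NEG and 0.763% to 2.97% in Arg. Its FPKM was between 28900 and 42800 in the 6 NEG libraries and between 3360 and 14800 in the 6 Arg libraries. The groups did not overlap, and its log2 fold change was −2.12 (standard error 0.33, adjusted p = 0.0072 by limma). In POS it held between 0.156% and 3.37% of the total.

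Under the deposited scaling, genes of high level were called lower in Arg more often than genes of low level. Among the 738 genes at 100 FPKM or more on average, 59 fell (7.99%) and 3 rose (0.407%), with a median log2 fold change of −0.30 over the class. Among the 1965 genes between 30 and 100 FPKM, 171 fell (8.70%) and 22 rose (1.12%). The 3576 genes between 3 and 10 FPKM had more rises than falls, 113 (3.16%) against 77 (2.15%), and their median was −0.01. With Arg_4 and NEG_2 left out the contrast was also found, with 31.8% lower and 6.91% higher in the class of at least 100 FPKM, and 8.86% lower and 13.5% higher between 3 and 10 FPKM. The median of the class of at least 100 FPKM then narrowed to −0.14. The excess of falls among genes of at least 100 FPKM held when scaled by total reads (39 falls and 15 rises) and turned when scaled to the same total FPKM (32 falls and 43 rises). The median was 6479.5 reads per NEG library in the highest class and 250 in the class from 3 to 10 FPKM, and the part of this depth in the calls was not tested.

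Gene length divided the changes as well. Of the 2281 genes with a recovered length of at least 4000 bp, 114 rose (5.00%) and 38 fell (1.67%), and the median log2 fold change was 0.17. Of the 1794 genes under 1000 bp, 15 rose (0.836%) and 95 fell (5.30%), with a median of −0.32. The 3153 genes from 1000 to 2000 bp had 32 rises (1.01%) and 182 falls (5.77%), a slightly higher share of falls than the shortest class, and the 4893 genes from 2000 to 4000 bp had 116 rises (2.37%) and 212 falls (4.33%). When both doubted libraries were left out the medians narrowed to 0.05 for the longest and −0.12 for the shortest class, and the longest and shortest classes still differed in the same way, with 17.8% higher and 9.38% lower in the longest class and 6.35% higher and 16.3% lower in the shortest. The relation to length did not turn with the scaling, as genes of at least 4000 bp had 236 rises and 19 falls by total reads and 406 rises and 4 falls by the same total FPKM, and genes under 1000 bp had 27 rises and 84 falls, and 70 rises and 73 falls. Level and length are not independent of each other, and their part in the calls was not tested. Of the tested genes, 11659 had an Ensembl identifier, with 266 rises and 520 falls (6.74% called), and 462 had a running name of the table, with 11 rises and 7 falls (3.90% called), beside 6.63% over all genes tested.

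The FPKM ranges of the 6 Arg and 6 NEG libraries did not overlap for 1746 genes tested (14.4%), of which 666 were higher in Arg (5.49%) and 1080 lower (8.91%). Among the called genes, 236 of the 277 rises and 450 of the 527 falls met this condition. The 2 largest rises and the 2 largest falls among them, which were also called without Arg_4 and NEG_2, are described by identifier. They were chosen by their Arg and NEG libraries, and the same Arg libraries enter their comparisons with other media. A difference of Arg from those media is therefore favoured by the choice. Of the 18 rises over 1 in size 3 (16.7%), and of the 124 falls over 1 in size 12 (9.68%), had a recovered length under 200 bp, beside 3.34% of all genes tested.

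ENSBTAG00000046529, with a recovered length of 56 bp, showed the largest rise among genes without overlap. Its FPKM was 104, 107, 72.5, 176, 79.1 and 59.9 in Arg_1 to Arg_6, and 28.5, 5.29, 40.6, 35.0, 49.8 and 31.3 in NEG_1 to NEG_6. Every Arg library lay above every NEG library, with Arg_4 the highest and NEG_2 the lowest of the 12. The mean was 99.9 ± 41.7 in Arg and 31.8 ± 15.0 in NEG (SD, n = 6 libraries each), and the log2 fold change was 1.77 (standard error 0.44, adjusted p = 0.039 by limma). Without Arg_4 and NEG_2 the log2 fold change was 1.16 (standard error 0.18, adjusted p = 0.0019 by limma), a smaller change with a smaller error. Its mean was 104 FPKM in Val and 86.3 in Leu, with libraries of both overlapping those of Arg. In POS it was 121, which rested on POS_4 at 371, and 71.2 ± 11.7 without it (SD, n = 5). The difference between Arg and POS was 0.01 on the log2 scale (standard error 0.42, adjusted p = 0.99 by limma), and 0.23 without Arg_4, NEG_2 and POS_4 (adjusted p = 0.36 by limma). The reads were few, between 4 and 48 per NEG library and between 59 and 130 per Arg library, and the call against NEG was lost in 7 of the 12 fits that left out 1 library and without a filter on low FPKM (adjusted p = 0.085 by limma).

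ENSBTAG00000000097, with a recovered length of 3875 bp, gave the smallest adjusted p of the rises named. Its FPKM was 27.3, 26.3, 19.6, 26.4, 19.5 and 21.7 in Arg_1 to Arg_6, from 1276 to 1866 reads. In NEG_1 to NEG_6 it was 9.20, 5.66, 10.2, 9.63, 9.88 and 9.86, from 296 to 659 reads. The groups were far apart, and NEG_2 was the lowest library. The log2 fold change was 1.29 (standard error 0.15, adjusted p = 0.0024 by limma), and 1.14 without Arg_4 and NEG_2 (standard error 0.10, adjusted p = 9e-05 by limma).

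Across the 12 media, ENSBTAG00000000097 was highest in POS and Arg. The mean was 28.1 ± 10.0 FPKM in POS (24.2 ± 2.85 without POS_4, n = 5) and 23.5 ± 3.60 in Arg, followed by 15.8 ± 1.43 in Leu, 14.9 ± 2.36 in Val, 14.3 ± 1.85 in Trp and 13.8 ± 2.05 in His. Lower means were found in Met (13.7 ± 2.12), Lys (12.3 ± 1.40), Phe (12.1 ± 1.21), Ile (11.6 ± 0.372) and Thr (11.5 ± 0.902), and the lowest in NEG (9.07 ± 1.70, SD, n = 6 libraries in each medium). All 6 Arg libraries, the lowest at 19.5 FPKM, lay above all 54 libraries of the other single-EAA media, the highest of which was 18.4 in Leu. Arg was higher than each of these 9 media in separate comparisons of 12 libraries, by 0.53 on the log2 scale against Leu (adjusted p = 0.031 by limma) up to 0.95 against Thr (adjusted p = 0.00097 by limma). Against the mean of all 9 the difference was 0.77 (standard error 0.08, adjusted p = 1.5e-11 by limma). A difference between Arg and POS was not called, at −0.21 (standard error 0.19, adjusted p = 0.60 by limma) and −0.08 without Arg_4, NEG_2 and POS_4 (standard error 0.12, adjusted p = 0.66 by limma). In these libraries the level with arginine alone was thus within the spread of the complete medium, and above that with any other EAA alone. The gene was chosen for its rise in the same Arg libraries, so its p-values against the other media are favoured by that choice.

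ENSBTAG00000052517, with a recovered length of 128 bp, fell to or near 0 reads in Arg. It had 10, 11, 14, 7, 16 and 9 reads in NEG_1 to NEG_6, or 4.80, 6.36, 7.11, 3.45, 7.27 and 4.25 FPKM. It had no read in Arg_1, Arg_2 and Arg_4, 1 read in Arg_3 and Arg_5, and 2 reads in Arg_6. A count of 0 in these libraries allows up to 3 reads, which is 1.33 FPKM in Arg_1, 1.35 in Arg_2 and 1.78 in Arg_4, still under the lowest NEG library. The log2 fold change was −2.34 (standard error 0.21, adjusted p = 0.00051 by limma), on a scale that understates the change of so low a gene. The mean was 0.302 FPKM in Arg and lower only in Leu (0.238), where 4 of 6 libraries were at 0. In His, Ile, Lys and Met 3 of 6 libraries each were at 0, but their highest libraries reached 3.32, 1.52, 2.91 and 3.86 FPKM, the last within the range of NEG. Phe (3.10 ± 1.28 FPKM) and Thr (2.95 ± 2.07) had no library at 0, and Arg was called lower than both, Phe (−1.62, adjusted p = 0.0042 by limma) and Thr (−1.46, adjusted p = 0.020 by limma). The difference of Arg from the mean of the 9 other single-EAA media was −0.68 (standard error 0.33, adjusted p = 0.16 by limma). POS had 2.10 ± 2.25 FPKM, with POS_1 at 5.54 and POS_2 at 3.87 within the range of NEG, and was called lower than NEG (−1.40, adjusted p = 0.028 by limma), but not without Arg_4, NEG_2 and POS_4 (adjusted p = 0.057 by limma).

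ENSBTAG00000010723, with a recovered length of 977 bp, fell from a mean of 26.2 ± 9.85 FPKM in NEG to 5.72 ± 3.99 in Arg (SD, n = 6 libraries each). The NEG libraries 1 to 6 had 21.7, 45.5, 25.2, 21.3, 25.4 and 18.0 FPKM and the Arg libraries had 4.35, 3.25, 7.29, 0, 11.2 and 8.26. The value of 0 was in Arg_4, where 3 reads would give 0.233 FPKM, and the highest value was in NEG_2. The log2 fold change was −2.30 (standard error 0.50, adjusted p = 0.023 by limma) and −1.66 without these libraries (standard error 0.25, adjusted p = 0.0016 by limma). The call was lost in 6 of the 12 fits that left out 1 library, and also with a pseudocount of 0.1 (adjusted p = 0.074 by limma), without a filter on low FPKM (0.059) and with voom on the reads (0.055). Its mean was as low in His (5.38 ± 5.09, or 3.41 without His_1) and lower in Leu (2.83 ± 1.76), while Phe (18.8 ± 1.94) and Thr (18.6 ± 4.26) were nearer to NEG. POS had 12.3 ± 18.0 FPKM, or 5.09 without POS_1 at 48.1, and was called lower than NEG (−1.95, adjusted p = 0.046 by limma), but not without Arg_4, NEG_2 and POS_4 (adjusted p = 0.087 by limma).

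**Figure D2:**
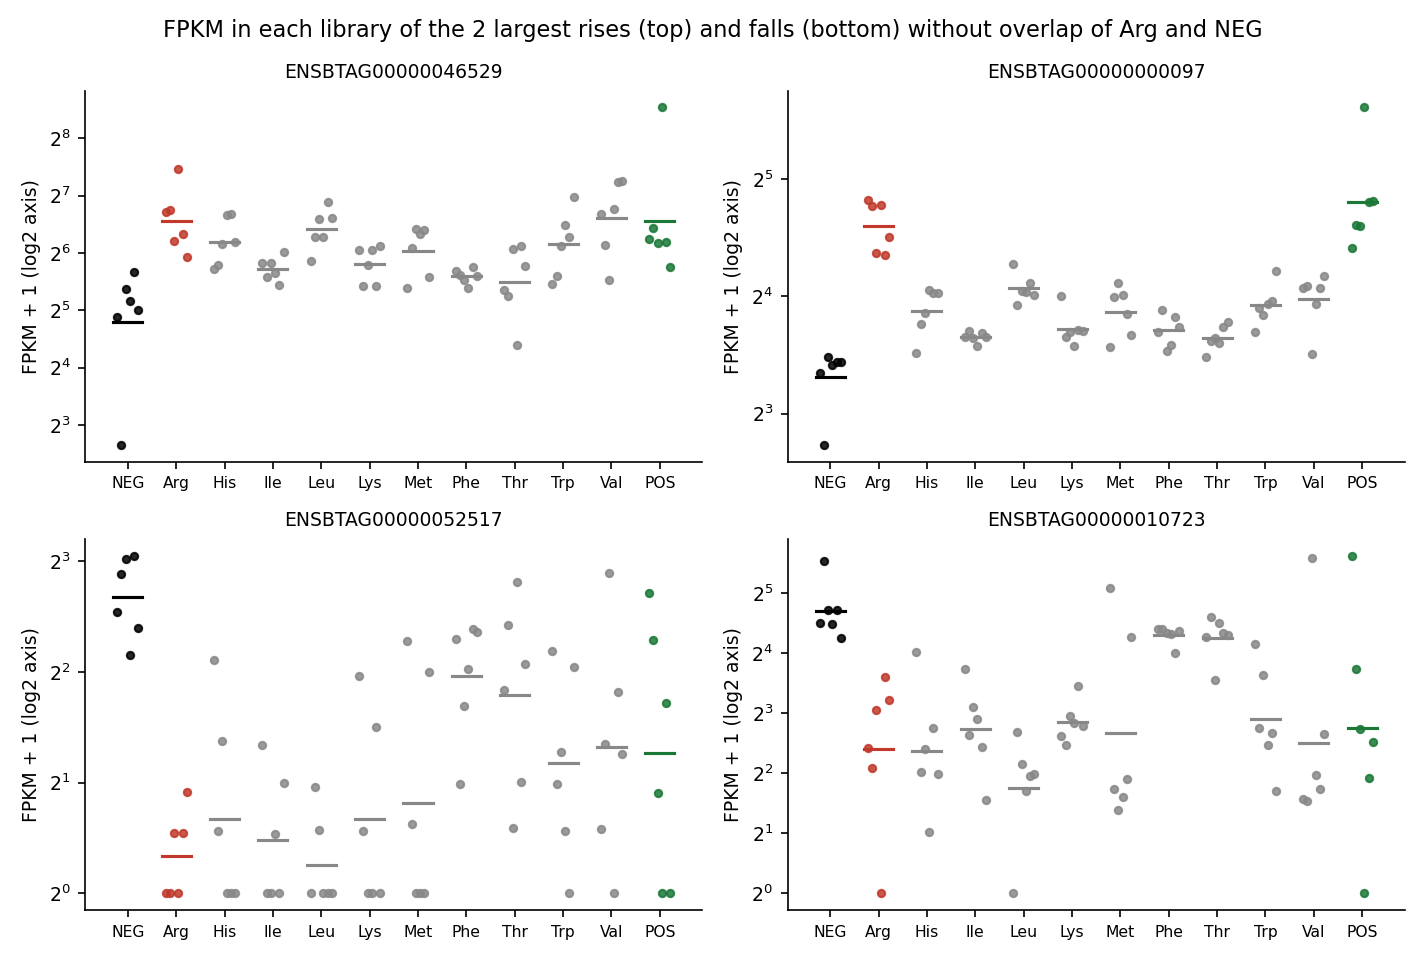
FPKM + 1 on a log2 axis for the 4 genes named, with 1 point per library, 6 libraries in each of the 12 media on the x axis, and bars at the mean of log2(FPKM + 1). ENSBTAG00000000097 (top right) has its 6 Arg libraries (red, 19.5 to 27.3 FPKM) above all libraries of the other single-EAA media (grey) and overlapping those of POS (green, from 20.2 FPKM), while the other 3 genes have grey media at or near the level of Arg.

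Some called changes were larger but did not separate the groups. The largest called fall, in a gene of 1314 bp, was −2.59 on the log2 scale (standard error 0.45, adjusted p = 0.012 by limma). Its FPKM was 21.7, 35.1, 32.3, 244, 33.8 and 35.5 in Arg_1 to Arg_6 and between 235 and 331 in NEG, so that Arg_4 alone lay at the level of NEG. With these libraries left out the fall was −3.12 (adjusted p = 1.9e-06 by limma). The largest called rise, in a gene of 69 bp, was 1.80 (standard error 0.46, adjusted p = 0.041 by limma), with overlapping groups and its highest value, 36.3 FPKM, in Arg_4.

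Complete medium holds arginine together with the other EAA. The comparison of POS with NEG shows which arginine changes also appear there. POS against NEG called 3969 genes, 32.7% of those tested, with 1730 higher (14.3%) and 2239 lower (18.5%). Both comparisons use the same 6 NEG libraries, so they are not independent, and agreement in direction is favoured by what they share. Of the 277 genes that rose with arginine, 140 (50.5%) were also called higher in POS, 8 (2.89%) were called lower and 129 (46.6%) were not called. Of the 527 genes that fell, 313 (59.4%) were also called lower in POS, 4 (0.759%) were called higher and 210 (39.8%) were not called. Scaled by total reads, 351 rises and 198 falls were shared, and scaled to the same total FPKM, 776 rises and 123 falls. The split of POS against NEG itself turned in the same way, to 2446 higher and 1685 lower and to 3380 higher and 1165 lower. With 1 library left out, the number shared ranged from 82 without NEG_1 to 1000 without Arg_4, and was 97 without Arg_1, 132 without NEG_5, 142 without NEG_4, 149 without NEG_3 or Arg_2, and 195 without NEG_6. The 453 shared genes were 56.3% of the arginine calls and 11.4% of the POS calls. Among the 140 shared rises the median log2 fold change was 0.63 in Arg and 0.77 in POS. Among the 313 shared falls it was −0.78 in Arg and −1.12 in POS.

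Arg and POS were also compared directly, which called 1335 genes (11.0%), 768 higher in Arg (6.34%) and 567 lower (4.68%). For most shared changes no difference between Arg and POS was called, in 129 of the 140 rises and 233 of the 313 falls. POS lay further from NEG than Arg in the other 11 rises and 80 falls, and Arg lay further in 0 of either, or in 5 rises and 4 falls without Arg_4, NEG_2 and POS_4. In those 80 falls the median log2 fold change was −0.66 in Arg and −1.84 in POS. The largest of these falls that also separated Arg from NEG was in a gene of 909 bp. Its FPKM was between 42.8 and 79.8 in NEG, between 4.93 and 21.6 in Arg and between 0.814 and 2.53 in POS, so the 3 groups did not overlap. It fell by 2.15 on the log2 scale with arginine (standard error 0.26, adjusted p = 0.0029 by limma), and Arg stayed above POS by 2.43 (standard error 0.28, adjusted p = 0.00016 by limma). The largest such rise was in a gene of 4087 bp, with 1.27 to 5.30 FPKM in NEG, 7.86 to 10.0 in Arg and 21.3 to 36.1 in POS, again without overlap. Its log2 fold change was 1.03 in Arg against NEG (standard error 0.22, adjusted p = 0.023 by limma) and −1.48 in Arg against POS (standard error 0.14, adjusted p = 2.7e-05 by limma).

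**Figure D3:**
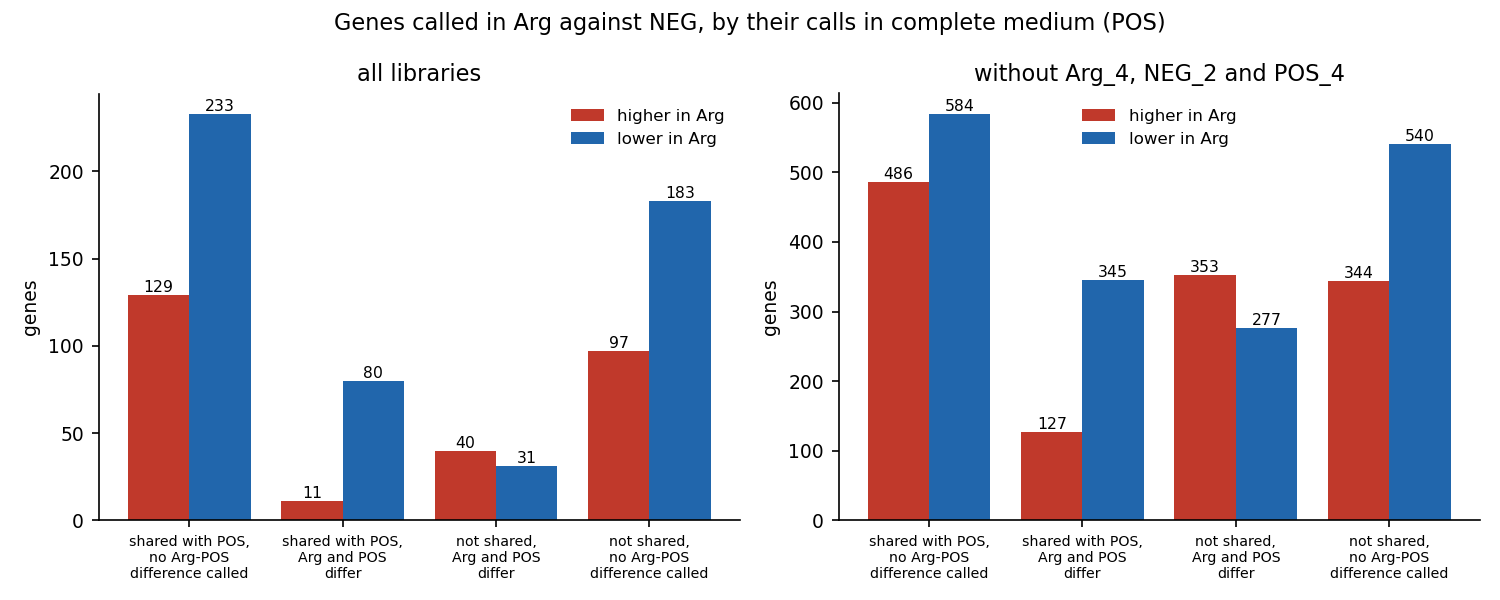
Bars count the genes called in Arg against NEG, higher (red) or lower (blue), by whether POS against NEG was called in the same direction (shared) and whether Arg and POS were called different, with all libraries on the left and without Arg_4, NEG_2 and POS_4 on the right. The tallest bars on the left are the shared changes without a called difference, 129 rises and 233 falls, and only 40 rises and 31 falls are not shared and differ from POS.

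Changes that POS did not share were fewer once the difference itself was tested. A call in Arg that is missing in POS may only have missed the threshold there, so a change was taken as not shared when Arg also differed from POS in the direction of the change. This left 71 genes of the 804 (8.83%), 40 rises and 31 falls, and between 17 (without Arg_1) and 198 (without Arg_4) when 1 library was left out. It left 20 without NEG_1, 26 without Arg_2, 27 without NEG_3, 29 without NEG_4, 30 without NEG_5, 32 without NEG_6 and 134 without POS_4. The median log2 fold change of the 40 rises was 0.60 in Arg and −0.13 in POS, and that of the 31 falls was −0.59 in Arg and 0.16 in POS. For the remaining 97 rises and 183 falls that were not shared, a difference from POS was not called either, and their medians in POS were 0.27 and −0.45, in the direction of arginine. Scaled by total reads, 78 rises and 22 falls were not shared, and scaled to the same total FPKM, 90 rises and 11 falls. Each gene here was first chosen by its Arg libraries, which also enter the comparison with POS, so the 2 tests are not independent.

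When Arg_4, NEG_2 and POS_4 were left out, POS against NEG called 48.2% of the genes tested and Arg against POS 30.5%, the shared changes numbered 1542 (613 rises and 929 falls) and those not shared 630 (353 rises and 277 falls). Of the 71 genes not shared in the full data, 39 of the 40 rises and 29 of the 31 falls were again in this class. The largest of these rises that separated Arg from NEG was in a gene of 9356 bp. Its FPKM was 12.7, 12.6, 8.60, 20.5, 8.99 and 7.96 in Arg_1 to Arg_6, between 4.72 and 5.68 in NEG and between 2.55 and 8.08 in POS, where POS_4 was the highest library. The log2 fold change was 1.04 against NEG (standard error 0.19, adjusted p = 0.015 by limma) and 1.36 against POS (standard error 0.27, adjusted p = 0.0065 by limma), and the difference from the mean of the other single-EAA media was 0.44 (standard error 0.14, adjusted p = 0.027 by limma). It was not confined to arginine, as the other single-EAA libraries ranged from 2.96 to 38.0 FPKM, with a median of 7.60.

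Arginine was then set against the other 9 EAA given alone. In 1 fit of the 60 single-EAA libraries, the Arg mean differed from the mean of the other 9 groups in 1876 genes (15.5%), 874 higher (7.21%) and 1002 lower (8.27%). Scaled by total reads the split was 1047 higher and 812 lower, and scaled to the same total FPKM it was 1095 and 654. Of the 804 genes called against NEG, 135 rises (48.7%) and 170 falls (32.3%) also differed in this way. Without Arg_4 and NEG_2 this held for 353 of the 1310 rises (26.9%) and 385 of the 1746 falls (22.1%). The same Arg libraries chose these genes and enter this comparison, so a share above that over all genes is favoured by the choice. Most of the 135 rises and 170 falls were shared with POS, with 78 rises and 124 falls. In these, arginine alone moved genes in the direction of complete medium and differed from the average of the other EAA. Without Arg_4 and NEG_2 the shared class held 142 of the 353 rises and 233 of the 385 falls. With 1 library left out, its total ranged from 58 without NEG_1 to 257 without Leu_1. Scaled by total reads this class held 156 rises and 73 falls, and scaled to the same total FPKM 251 rises and 44 falls. In these 124 falls the median log2 fold change was −0.75 in Arg against NEG, −1.33 in POS against NEG and −0.58 in Arg against the other EAA.

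A smaller class differed from NEG, from POS and from the mean of the other single-EAA media in the same direction. It held 51 genes (6.34% of the calls), 33 rises and 18 falls, and includes the gene of 9356 bp. A difference from the mean of 9 media does not set a gene apart from each of them. The Arg mean lay beyond the mean of every other single-EAA medium in 22 of the 33 rises and 14 of the 18 falls. All 6 Arg libraries lay beyond all 54 libraries of these media in 5 rises and 5 falls. These counts are favoured by how the class was chosen, and the same share over all genes tested is not given. Against these libraries and NEG together, 0.0825% of all genes tested lay above and 0.272% below. With 1 library left out, the class ranged from 12 genes without Arg_1 to 107 without Arg_4, with 19 without NEG_1, 20 without Arg_2, 24 without NEG_3 or NEG_4, 25 without NEG_5 and 28 without NEG_6. The changes of the 51 genes were small, with 0.35 to 1.04 on the log2 scale in the rises and 0.38 to 1.21 in size in the falls, and only 2 rises and 2 falls exceeded 1. Their mean FPKM had a median of 10.3 in the rises and 24.3 in the falls. Without Arg_4, NEG_2 and POS_4, 28 of the 33 rises and 14 of the 18 falls were found again, in a class that then held 116 rises and 80 falls. Under total reads the class had 55 rises and 12 falls, and under the same total FPKM 56 rises and 8 falls. The largest fall of the class that separated Arg from NEG was in a gene of 789 bp with 11.6 to 19.4 FPKM in Arg, 28.3 to 68.7 in NEG and 17.0 to 29.5 in POS, so Arg and POS overlapped. The other single-EAA libraries, from 11.0 to 63.1 FPKM, overlapped Arg as well. The log2 difference was −1.18 from NEG (standard error 0.22, adjusted p = 0.015 by limma) and −0.68 from POS (standard error 0.17, adjusted p = 0.023 by limma).

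A stricter description asks for which genes all 6 Arg libraries lay outside the range of all 66 other libraries. They lay above it in 6 genes (0.0495% of those tested) and below it in 7 (0.0578%), together 0.107%. The corresponding numbers for the other media were 143 above and 209 below in POS, 12 and 7 in NEG, 10 and 1 in Met, 6 and 1 in Leu, 0 and 1 in Ile, and 0 in His, Lys, Phe, Thr, Trp and Val. Without Arg_4, 10 genes lay above (0.0825%) and 11 below (0.0908%), together 0.173%. Of the 6 genes above, 5 were called in Arg against NEG, as were 6 of the 7 below. The 6 genes above were moderate in size of change, with log2 fold changes from 0.49 to 0.73 against NEG and 0.44 to 0.76 against the other single-EAA media. In the first of them, a gene of 5074 bp, the 6 Arg libraries had 39.9 to 43.8 FPKM and the 66 others 18.0 to 39.0. In another of 2725 bp they had 12.6 to 15.7 FPKM and the others 7.53 to 12.5. Among the 7 genes below, a gene of 1131 bp had 75.3 to 81.2 FPKM in Arg and 83.0 to 164 in the others, and a gene of 3519 bp had 24.5 to 31.5 in Arg and 31.8 to 62.8 in the others. The lower side did not survive another scaling. By total reads 6 genes lay above, 5 of them the same, and 0 below, and by the same total FPKM 4 lay above, 1 of them the same, and 1 below, which was not among the 7.

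**Figure D4:**
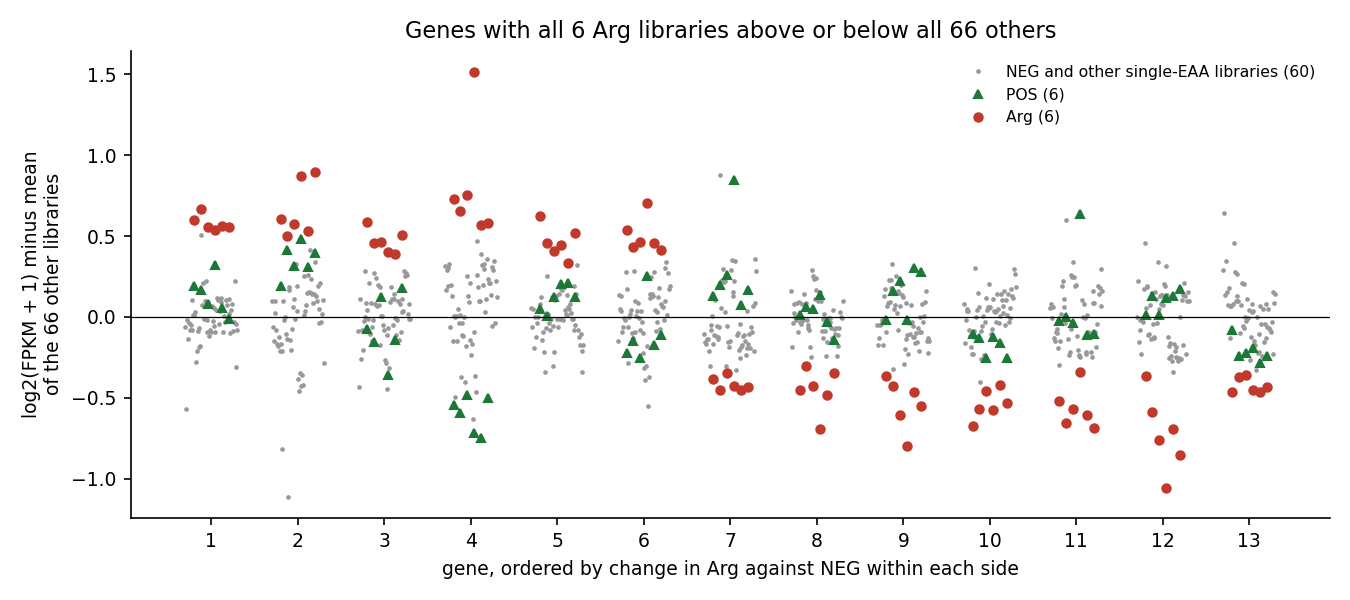
The y axis gives log2(FPKM + 1) of each library minus the mean of the 66 libraries other than Arg, for the 13 genes on the x axis in which all 6 Arg libraries (red) lay above (genes 1 to 6) or below (genes 7 to 13) all others (grey, NEG and other single-EAA media, and green, POS). The gap between red points and the nearest other library is narrow in most genes, and gene 4 has POS below nearly all grey points while Arg is above them.

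With POS left aside, 10 genes (0.0825%) had all 6 Arg libraries above the 60 libraries of NEG and the other single-EAA media and 33 (0.272%) had them below, together 0.355%. ENSBTAG00000000097 belongs to these 10.

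Across the study, the number of genes called between Arg and each other single EAA was lowest for Trp, with 120, and highest for Thr, with 1954. It was 364 for Ile, 370 for His, 390 for Lys, 615 for Val, 679 for Met, 689 for Leu and 1180 for Phe. Without Arg_4 each of these counts rose and their order changed, to 960 for Trp, 1349 for Ile, 1702 for Lys, 2326 for His, 2361 for Met, 3419 for Phe, 3716 for Val and 4211 for Thr. For Leu it was 5267, but there Leu_1 was left out too, which had 10495 genes above 0 and the next Leu library 15747, so this count is not of the same form as the others.

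The levels of the called genes were also followed in the media that did not enter their choice. As the mean of log2(FPKM + 1) over the 277 rises, NEG was at 3.02 ± 0.09 and Arg at 3.67 ± 0.21 (SD, n = 6 libraries each), values that reflect how the genes were chosen, so no other medium is compared with either. Of the other media, Leu was at 3.66 ± 0.21, Val at 3.58 ± 0.21, POS at 3.51 ± 0.31, His at 3.45 ± 0.13 and Trp at 3.41 ± 0.19. Ile (3.35 ± 0.09), Met (3.31 ± 0.18), Lys (3.29 ± 0.09), Phe (3.21 ± 0.05) and Thr (3.12 ± 0.07) were lower. Neighbours in this order of 10 media differed by less than the larger of their SDs, except Phe from Thr. Single libraries carried part of the order. Leu_1 was at 4.06, POS_4 at 4.04 and Val_3 at 3.15, and without them Leu was at 3.58 ± 0.07, POS at 3.40 ± 0.18 and Val at 3.66 ± 0.04 (SD, n = 5), which places Val above Leu and POS below His and Trp. Met_1 and Met_6 (3.08 and 3.10) lay below the other Met libraries (3.39 to 3.46).

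For the 527 falls the mean was 5.12 ± 0.14 in NEG and 4.28 ± 0.30 in Arg. It was 4.17 ± 0.50 in Leu, 4.18 ± 0.46 in POS, 4.43 ± 0.34 in Val, 4.44 ± 0.20 in His and 4.52 ± 0.26 in Trp. Met (4.59 ± 0.32), Ile (4.60 ± 0.11) and Lys (4.64 ± 0.11) followed, and Phe (4.90 ± 0.07) and Thr (4.95 ± 0.11) were the highest of the media that did not enter the choice. Over all genes tested Thr (3.76 ± 0.02) and Phe (3.75 ± 0.01) were also the highest of these media. Over the 527 falls, Leu_1 was at 3.16 and the other 5 Leu libraries between 4.33 and 4.47, with a mean of 4.38 ± 0.06, POS without POS_4 was at 4.33 ± 0.32, and Val without Val_3, itself at 5.11, was at 4.29 ± 0.04. Arg without Arg_4 was at 4.38 ± 0.21. Within Arg the lowest library was Arg_4, at 3.82, and the highest was at 4.57. Over all genes tested the mean level was 3.76 ± 0.02 in NEG and 3.65 ± 0.16 in Arg, with 3.35 in Arg_4, 3.12 in Leu_1 and 3.43 in POS_4, so these libraries were low over all genes as well.

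**Figure D5:**
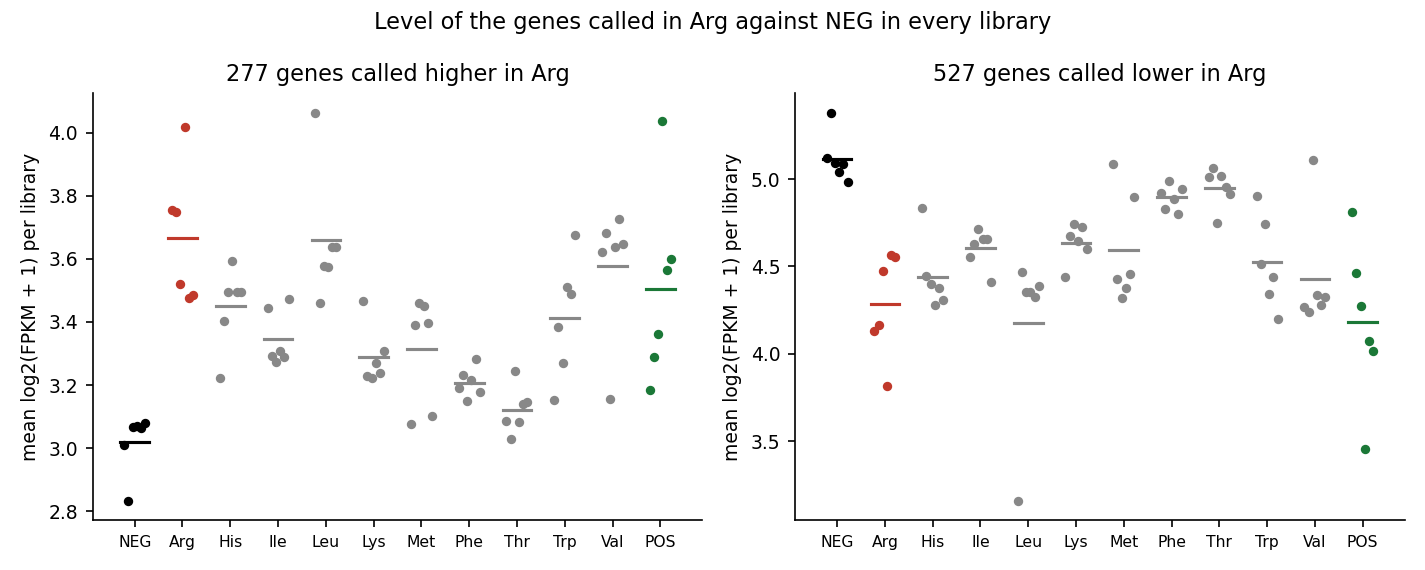
Each point is the mean of log2(FPKM + 1) in 1 library over the 277 genes called higher (left) or the 527 genes called lower (right) in Arg against NEG, with the 12 media on the x axis and bars at the mean of 6 libraries. NEG and Arg were used to choose the genes, and among the other media Phe and Thr are the lowest on the left and the highest on the right, while Leu_1 (4.06 and 3.16), POS_4 (4.04 and 3.46) and Val_3 (3.15 and 5.11) lie apart from the rest of their media.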

How the data were processed

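The RNA-seq table of all 72 libraries was read, and Arg_1 to Arg_6 were compared with NEG_1 to NEG_6. FPKM is the unit of the values the authors deposited. The submitters' processing notes name HISAT2 (version 2.0.5), StringTie (version 1.3.3b), featureCounts (version 1.5.0-p3) and DESeq2 (version 1.20.0), while the paper names cufflinks and htseq-count for quantification. A genome build was not stated in what was read here, and the sources also differ on library kit and culture plate. Reads per gene and library were recovered from the FPKM, with 100.0% of nonzero values lying less than 0.001 from an integer. Gene lengths recovered from few reads may be too short by a whole factor. Limits from reads cover counting error only, since PCR copies were not marked. Whether counting used strand was not stated, so overlapping genes cannot be told apart.

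A trended prior in limma (version 3.58.1, under R version 4.3.3) was used on log2(FPKM + 1) for genes averaging 1 FPKM or more. Only libraries of the groups compared entered a fit. The script was tested on simulated data. Python (version 3.11.15), numpy (version 2.4.6), pandas (version 2.3.3) and matplotlib (version 3.10.9) were used for counts and figures. The comparisons, lists and rules were chosen with earlier results of these data known. Genes were to be named by symbol, as the largest changes without overlap of Arg and NEG that were also called without Arg_4 and NEG_2, in all calls and in each class. No identifier had a symbol, so 2 rises and 2 falls are named by identifier, and the largest change of a class is described without one. Planned counts for lists of genes by symbol (among them amino acid response, mTORC1, arginine metabolism, milk proteins and cell type markers) were not run. Scaling by total reads, the class shared with POS that differs from the other single-EAA media, and means of a medium without a library that stands apart were added after the data were seen.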

Additional observations from a re-analysis of the deposited data

Results flagged for a closer look

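In 24 groups of 6 libraries examined for a library far from the others, 10 had one. Chance gives about 1 in 20 among independent groups, which these are not, since they are repeated measures on 3 media and several use genes chosen by their Arg and NEG values. In Arg, Arg_4 had the fewest reads on genes, 12803214, and the fewest genes above 0, 11838. In NEG, NEG_2 was the library apart in 4 cases, with 5.66 FPKM for ENSBTAG00000000097 (the lowest), 45.5 FPKM for ENSBTAG00000010723 (the highest), and a mean log2(FPKM + 1) of 2.83 over the genes called higher in Arg (the lowest) and 5.38 over those called lower (the highest). In POS, POS_4 had 13537 genes above 0, the fewest, and the highest FPKM for ENSBTAG00000046529, 371, and ENSBTAG00000000097, 47.9, and POS_1 had the highest FPKM for ENSBTAG00000010723, 48.1. The causes were not tested.

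Arg and POS differed, by a direct test, in 71 of the genes called in Arg against NEG and not shared with POS.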

How the results depend on the processing

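In the following, counts are in the order Arg against NEG, shared with POS, not shared with POS, not shared with POS while differing from the mean of the other single-EAA media, and shared with POS while differing from that mean, which were 804, 453, 71, 51 and 202, where they moved by over 1.5 times. Without a filter on low FPKM they were 440, 236 and 130 for the first, second and last. Scaled to the same total FPKM, the first and second were 1570 and 899. With 1 fit of all 12 treatments they were 3363, 2057, 633, 212 and 474, and Arg against POS gave 3535 genes. With sample weights they were 4396, 2665, 1346, 795 and 1170, with 6787 for Arg against POS, 8554 for POS against NEG, 8370 for Arg against the other single-EAA media and 74 DEG. Without Arg_4 and NEG_2 they were 3056, 1194, 325, 146 and 375, with 2112 for Arg against POS and 114 DEG, and without POS_4 also 3056, 1542, 630, 196 and 461, with 3692 for Arg against POS and 114 DEG. With 1 library left out they ranged from 122 to 2071, 82 to 1000, 17 to 198, 12 to 107 and 58 to 257, DEG from 142 to 603, POS against NEG from 3054 to 5042, Arg against POS from 944 to 2112 (2011 without POS_4) and Arg against the other single-EAA media from 1578 to 2693. The causes were not tested. A pseudocount of 0.1 (652 genes in Arg against NEG), rescaling by median ratios (798) and voom on the reads (767) moved none of these totals by over 1.5 times, but the 41 higher DEG became 89 with the pseudocount and 86 with voom.

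Replicate numbers did not pair the libraries, as deviations of same-numbered Arg and NEG libraries correlated between −0.249 and 0.26 and not every Arg library correlated best with its own number. With the replicate number as a block, the same 5 counts were 7, 6, 0, 0 and 5, while POS against NEG gave 3510 and DEG 410, and 3 of the 4 named genes were not called (adjusted p by limma 0.094 for ENSBTAG00000046529, 0.059 for ENSBTAG00000000097 and 0.078 for ENSBTAG00000010723).

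None of the 4 named genes changed direction. Their calls were kept in 37 of 44 values under other settings and in 35 of 48 with 1 library left out. Depth limits genes of few reads, such as ENSBTAG00000052517, and Arg_4 had the fewest reads on genes of its group.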
